A study of Mus musculus with 2 samples.

Results

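The miR-181 family and the pair of miR-221 and miR-222 were examined in ureteric bud cells of the embryonic mouse kidney. The 6 members were the probes named exactly mmu-miR-181a, mmu-miR-181b, mmu-miR-181c, mmu-miR-181d, mmu-miR-221 and mmu-miR-222 (written below without the mouse prefix), without the asterisk that marks an opposite hairpin arm, out of 1040 mouse miRNA probes on the array. The family has 4 members and the pair has 2. Kidneys came from E15.5 embryos, named for their embryonic day, that carried Rosa26YFP, a yellow fluorescent reporter, together with Hoxb7Cre, a recombinase line driven in the ureteric bud lineage. The reporter marks any cell in which the recombinase has acted and its descendants. YFP-positive cells were sorted from the dissociated kidneys, and small RNA from 4 µg of total RNA per assay was hybridised. The study has 1 group of 2 samples. Replicate 1 was stained with Cy3 and replicate 2 with Cy5, and the dye cannot be told apart from the sample. The labels name no separate litters or pools, so the spread between the samples may be technical. No other genotype, age or cell type was analysed here.

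The ureteric bud is the branching epithelium that gives rise to the collecting ducts. A miRNA is cut from a hairpin precursor, and 1 arm usually persists and guides the silencing complex to messenger RNAs that pair with its seed, here taken as bases 2 to 8. Members of the miR-181 family are best known from lymphocytes, where miR-181a tunes the strength of antigen receptor signalling in developing T cells. miR-221 and miR-222 lie in a single cluster and are known from cultured cells to repress Cdkn1b, an inhibitor of cyclin-dependent kinases, and the receptor gene Kit. Both are also well known from endothelial and smooth muscle cells.

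The targets of the 6 probes are printed 5′ to 3′ as given in the scanner tables, with the seed in capitals, because shared bases limit how far signal can be assigned to single members.
miR-181a: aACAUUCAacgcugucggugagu
miR-181b: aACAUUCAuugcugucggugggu
miR-181c: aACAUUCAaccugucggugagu
miR-181d: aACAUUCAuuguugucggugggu
miR-221: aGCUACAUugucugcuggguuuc
miR-222: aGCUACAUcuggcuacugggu
The 4 miR-181 targets shared the seed ACAUUCA, which stood at bases 2 to 8 of no other probe among the 1040. Counted from 1 at the 5′ end, miR-181a and miR-181b differed by A9U, C10U and A21G, and miR-181b and miR-181d by C12U alone. The target of miR-181c equalled that of miR-181a after removal of the base G11. No pair of the 4 targets differed by more than 4 substitutions and 1 missing base, and RNA of one member could bind the probe of another.

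The pair differed more, with 10 substitutions over the first 21 bases, all of them behind the first 8 bases. Its seed GCUACAU also stood at bases 2 to 8 of 1 further probe, miR-1928, whose shorter target is printed for comparison.
miR-1928: aGCUACAUugccagcuc
The first 10 bases of miR-1928 equal those of miR-221, with 3 substitutions over all 17. The miR-1928 probe gave 210.4 intensity units in replicate 1 and 48.8 in replicate 2, below the median miRNA probe of each array (222.9 and 53.1). GC content was 43.5% to 52.4% over the 6 targets, around the 47.8% median of all probes.

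Against RefSeq mature sequences (GRCm38.p6), 4 of the 6 targets were identical. The targets of miR-181b and miR-222 lacked the last 1 and 2 bases of the RefSeq forms. miR-181a-5p is encoded at chr1:137966468-137966490 and at chr2:38852741-38852763, both on the plus strand. miR-181b-5p lies behind it on each chromosome, with starts 182 bp apart on chromosome 1 and 1104 bp apart on chromosome 2. The RefSeq table placed the chromosome 2 copies within the spans of Nr6a1, a gene for an orphan nuclear receptor, and of the long non-coding RNA Nr6a1os. miR-181c-5p (chr8:84178924-84178945) and miR-181d-5p (chr8:84178759-84178781) lie on the minus strand of chromosome 8, and miR-221-3p (chrX:19146307-19146329) and miR-222-3p (chrX:19146901-19146923) on the minus strand of the X chromosome. No other RefSeq gene of that table spanned the copies on chromosomes 1, 8 and X. One probe each for miR-181a and miR-181b cannot tell apart the copies on chromosomes 1 and 2.

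Each array held 3968 spots, among them 3 repeat spots for each miRNA probe and 560 blank spots, whose mean raw intensity was 203.9 ± 33.1 (SD over blank spots) in replicate 1 and 58.9 ± 7.42 in replicate 2. The detection limit was the blank mean plus 3 SD, and a miRNA was detected where 2 or more of the 3 spots passed it, that is above 303.2 units in replicate 1 and 81.1 in replicate 2. Of the 5 miR-200 family members, taken as epithelial markers, 3 were detected in both samples, against 5.96% of all probes. These were miR-200c (2109.8 and 759.5 units), miR-200b (663.9 and 191.1) and miR-429 (475.8 and 136.0). The probes of miR-200a (238.7 and 51.9 units) and miR-141 (207.9 and 54.0) were below the limit in both samples. Of 21 markers of blood, endothelium, stroma and smooth muscle, nervous tissue and striated muscle, 0 were detected in both samples and 1, the stromal miR-214, in replicate 2 alone (281.0 and 88.0 units). With 5.96% of all probes detected in both samples, 0 of 21 is near that share and is no measure of purity. Precision is limited by having 2 arrays and by the low signal of these probes.

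In each family 1 member stood above the limits in both samples, miR-181a in the miR-181 family and miR-222 in the pair. These 2 of 6 members (mmu-miR-181a at 424.9 and 93.6 units, mmu-miR-222 at 423.5 and 103.0, median of repeat spots) compare with 62 of all 1040 probes, or 5.96%. The other 4 members were mmu-miR-181b (256.5 and 54.5 units), mmu-miR-181c (248.5 and 56.4), mmu-miR-181d (235.0 and 55.0) and mmu-miR-221 (262.2 and 58.3), each below the limit in both samples. Probes differ in affinity, so none of these values orders the members by amount.

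The repeat spots of miR-181a read 424.9, 481.5 and 422.8 units in replicate 1, all above the limit. In replicate 2 they read 93.6, 94.7 and 75.8 units, of which 2 were above the limit and the third was below it. The median spot was 1.40 times the limit in replicate 1 and 1.15 times in replicate 2, so the call for this T cell associated miRNA was narrow in replicate 2. Among all probes it took rank 54 by raw intensity in both arrays.

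The repeat spots of miR-222, the member of the pair with the shorter target, read 423.5, 428.4 and 402.5 units in replicate 1. In replicate 2 they read 103.0, 109.3 and 92.3 units. All 6 spots exceeded their limits, and the median spot lay at 1.40 and 1.27 times the limit. Its ranks by raw intensity were 55 and 49.

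**Figure D1:**
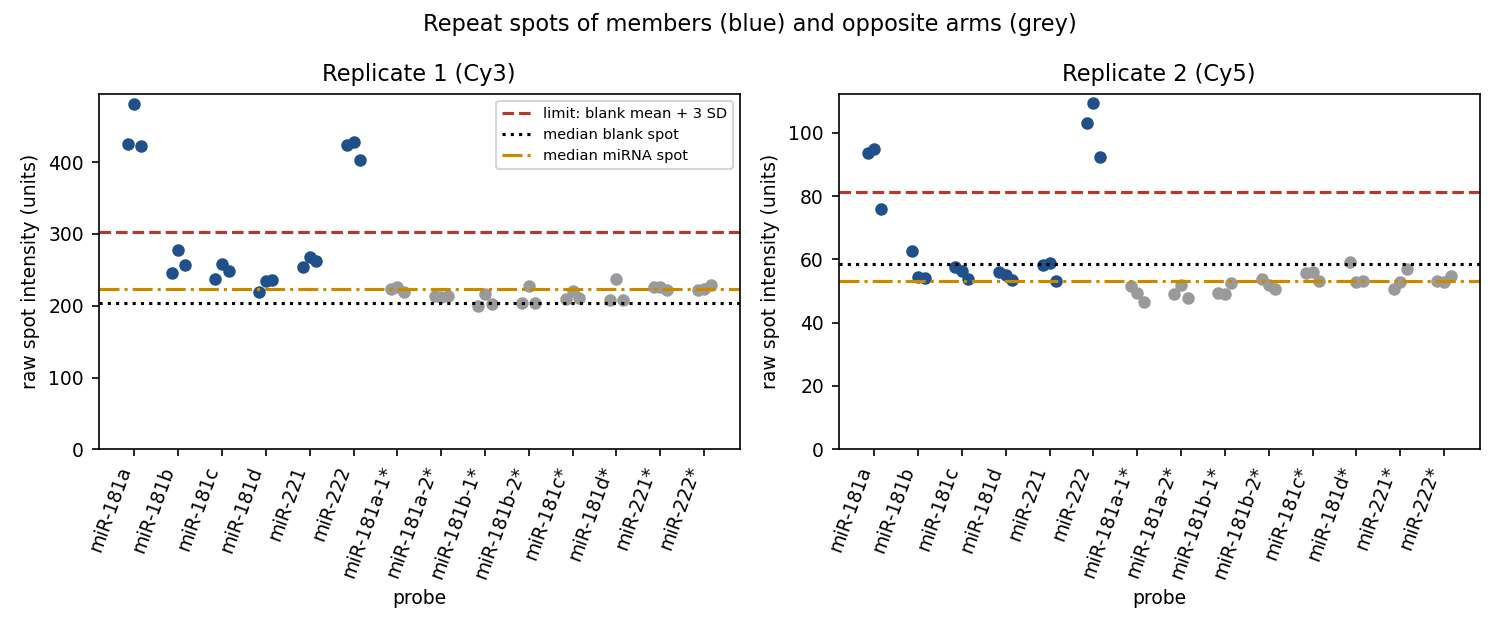
Raw intensity of the 3 repeat spots (points) of each member (blue) and each opposite hairpin arm (grey) in replicate 1 (left, Cy3) and replicate 2 (right, Cy5), with the detection limit, the median blank spot and the median miRNA spot as lines. Spots of miR-181a and miR-222 lie above the limit of 303.2 units on the left, and all but 1 of them lie above 81.1 units on the right.

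After background correction and quantile normalization, the log2 signal of miR-181a was 7.44 in replicate 1 and 7.50 in replicate 2, or 7.47 ± 0.04 (SD, n = 2). That of miR-222 was 7.43 and 7.64, or 7.54 ± 0.14 (SD, n = 2). On this scale the 2 samples lay close together for both miRNAs. The difference, replicate 1 minus replicate 2, was -0.06 for miR-181a and -0.20 for miR-222, against a median absolute difference of 0.37 over the 62 detected miRNAs. Equal ranks force equal values under quantile normalization, so an SD of 0.04 is no full measure of precision. Without normalization the differences were 1.55 and 1.42, and the median of the detected miRNAs was 1.43. With loess they were 0.11 and -0.05. The sign thus turned with the scaling for both, for miR-222 only without normalization among these settings, and neither difference was tested, since each dye has 1 sample.

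Mean signal over the blank level of the array was 1.21 log2 units for miR-181a and 1.27 for miR-222. Neither was shown to lie more than 2-fold above blank by treat of limma, adjusted after Benjamini-Hochberg over 1040 probes (unadjusted p = 0.250 and 0.188, adjusted p = 1.0 for both). Of the 6 members, 0 passed this test, and 0 had an unadjusted p under 0.05, while 36 of all probes passed (3.46%). Without the 2-fold bound, limma's moderated test called both miR-181a (adjusted p = 0.0020) and miR-222 (adjusted p = 0.00092), among 68 probes called in all. With the 2-fold bound kept and the median blank spot subtracted in place of normexp, both also passed treat of limma, at 5.41 log2 units for miR-181a (adjusted p = 0.020) and 5.53 for miR-222 (adjusted p = 0.016), with values at or under blank set to 1 unit. Before normalization the median blank spot itself stood at that floor, so these values are no fold over the raw blank. In raw units miR-181a stood at 424.9 and 93.6 and miR-222 at 423.5 and 103.0, against median blank spots of 203.1 and 58.4. The call therefore turned with the bound and with the background step.

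**Figure D2:**
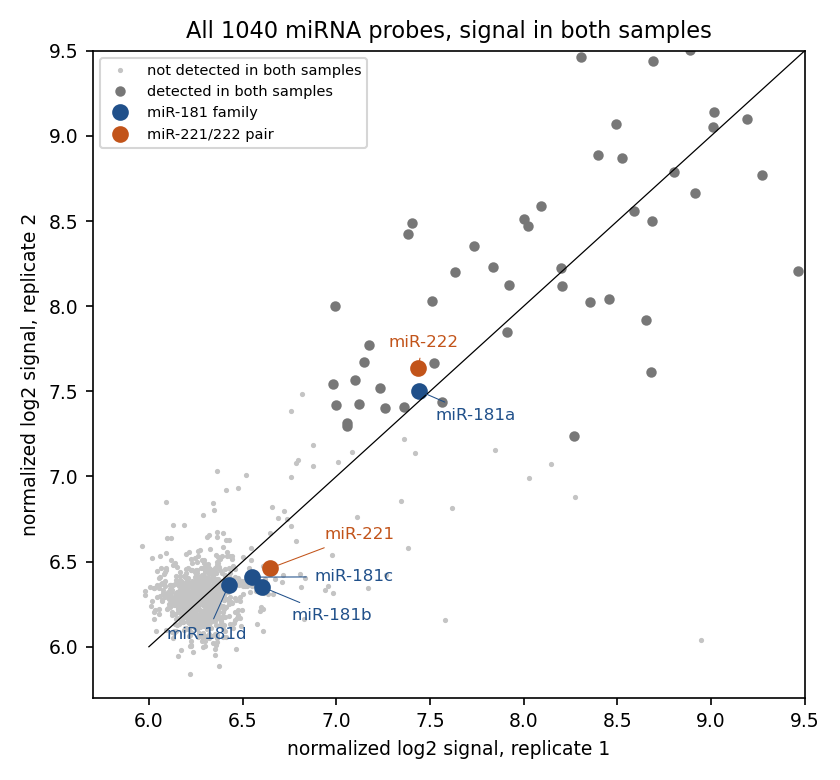
Normalized log2 signal in replicate 1 (x axis) and replicate 2 (y axis) of the 1040 miRNA probes, with members in colour and the line of equal values drawn; 14 probes beyond 9.5 on either axis are not shown. miR-181a (7.44 and 7.50) and miR-222 (7.43 and 7.64) lie among the detected probes, and the other 4 members within the cloud of undetected ones, above its middle on both axes.

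The probes of miR-221 and of the remaining miR-181 members stayed under the limits. miR-221, the partner of miR-222 from the same cluster, read 253.3, 267.1 and 262.2 units in replicate 1 and then 58.3, 58.9 and 53.2 units in replicate 2. miR-181b, encoded beside miR-181a at both loci, read 245.9, 276.9 and 256.5 units in replicate 1, then 62.5, 54.5 and 54.0 units in replicate 2. Neither probe had a spot above the limit in either sample, although both are encoded beside a detected member.

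The chromosome 8 members had no spot above the limits either. miR-181c read 236.5, 257.8 and 248.5 units there and 57.6, 56.4 and 53.8 in replicate 2. miR-181d read 219.4, 235.0 and 236.4 units in replicate 1, then 56.0, 55.0 and 53.4 units in replicate 2. Median spots of the 4 undetected members were 0.77 to 0.86 times the limit in replicate 1 and 0.67 to 0.72 times in replicate 2. By this limit they were not detected in either sample, and absence is not shown. Some of them exceeded lower limits in replicate 1, as given below. In RNA from many cells, a low level in every cell and a higher level in a few cells cannot be told apart.

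The blank spots placed these 4 members differently in the 2 arrays. In replicate 1 all 12 of their spots exceeded the median blank spot, as did 94.7% of all miRNA spots. In replicate 2 only 2 of the 12 did, against 18.0% of all miRNA spots. Measured against the median miRNA spot of the same array, 11 of the 12 spots were brighter in replicate 1 and 12 of 12 in replicate 2, a level that splits all miRNA spots evenly. The low signal of the 4 thus lay above the middle of the miRNA probes in both samples, although it did not exceed the blank spots in replicate 2.

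The limit of replicate 1 was widened by 1 blank spot at 916.8 units, the next brightest being 243.3. Without that spot the limit was 243.5 units, and miR-221 (1.08 times), miR-181b (1.05 times) and miR-181c (1.02 times) exceeded it in replicate 1, which made 5 of 6 members there against 12.8% of all probes. In replicate 2 the same step left the limit at 80.4 units and 2 members above it, also in both samples together (6.15% of all probes). The count of 2 members detected in both samples was therefore the same. In replicate 1 all 6 members also exceeded the 95th percentile of blank spots (226.1 units), which lay near the median miRNA probe (222.9). The share of all probes above it in replicate 1 was not counted, so 6 of 6 is no result about the members. In replicate 2 only 2 members exceeded that percentile (71.4 units). In both samples together 2 members exceeded it, as did 75 of all 1040 probes.

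**Figure D3:**
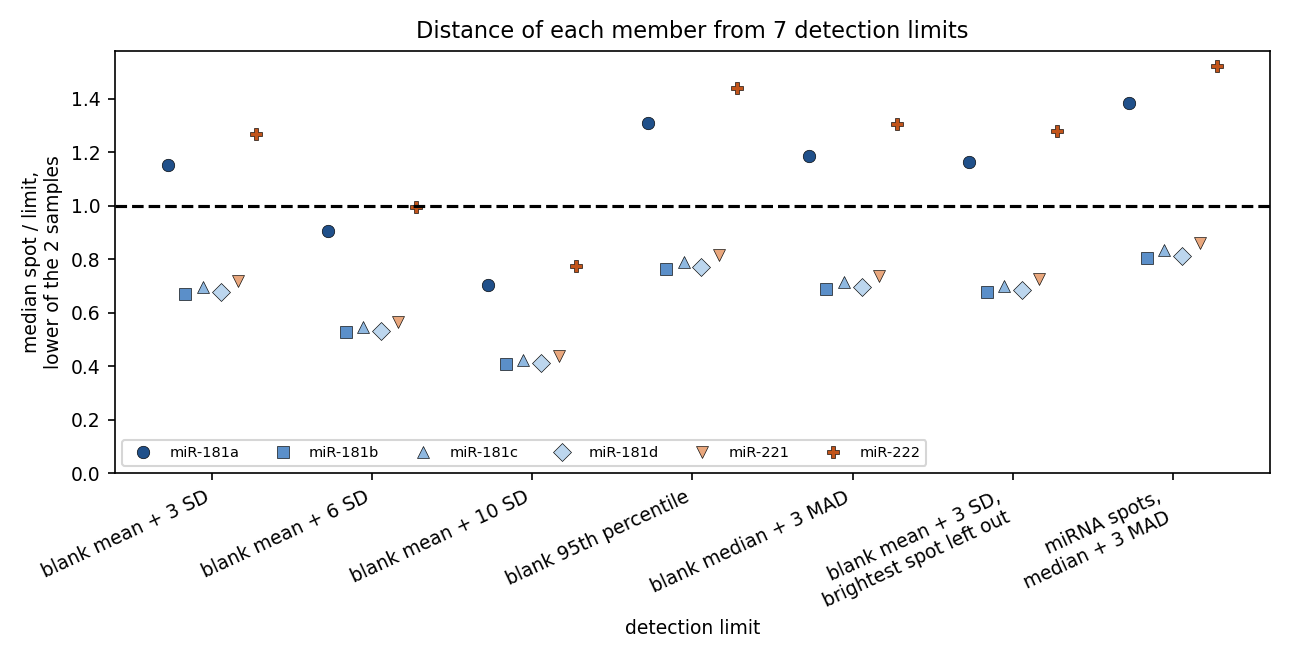
Median spot of each member divided by the detection limit, taking the lower of the 2 samples, for 7 limits (x axis), with the dashed line at 1 where a member is just detected. miR-181a and miR-222 lie above 1 for 5 limits and below it at 6 SD (0.91 and 0.997) and 10 SD, and the other 4 members lie below 1 for all 7.

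The opposite arms of the same hairpins were also on the array, as 8 probes: miR-181a-1*, miR-181a-2*, miR-181b-1*, miR-181b-2*, miR-181c*, miR-181d*, miR-221* and miR-222*. None of the 8 was detected in either sample, and neither were 956 of all 1040 probes. Their median raw intensities were 202.6 to 225.4 units in replicate 1 and 49.2 to 55.8 in replicate 2, at most 0.74 times the limit. Those of the 6 members were 235.0 to 424.9 and 54.5 to 103.0 units, so the ranges did not overlap in replicate 1 and overlapped in replicate 2. The gap in replicate 1, from 225.4 to 235.0 units, lay below the limit of 303.2. Over all 326 pairs of arms on the array, the arm without an asterisk had the brighter median in 65.3% and 61.7%.

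Each opposite arm was spotted 1 or 2 rows from its member in the same column, which sets neighbouring spots side by side. The member was the brighter spot in 23 of 24 such pairs in replicate 1 and in 22 of 24 in replicate 2. The 24 pairs rest on 18 spots of 6 members, since miR-181a and miR-181b each have 2 opposite arms. Repeat spots share 1 RNA sample, so the pairs are not independent. Over all 326 arm pairs of the array named in this way, the arm without an asterisk was the brighter spot in 63.1% and 61.8% of spot pairs. For miR-181a and miR-181a-1* the median gap between neighbouring spots was 203.7 units in replicate 1 and 42.1 in replicate 2. For miR-222 and miR-222* it was 201.8 and 49.9 units. For the undetected members the gaps were 40.6 units in replicate 1 and 6.0 in replicate 2 for miR-221, and 53.9 and 5.55 for miR-181b against miR-181b-1*. They were 37.6 and 0.55 units for miR-181c, and 11.2 and 0.11 for miR-181d. The 2 arms of a hairpin have different sequences, so affinity and amount cannot be told apart in these gaps.

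The authors also deposited a processed value per probe and sample, with column medians of 10 and 9 units. Its scale is linear, while its background correction and any scaling between its columns are not stated in those sources that were used. In this table miR-181a stood at 341 units in replicate 1 and 307 in replicate 2, and miR-222 at 308 and 418. miR-181b stood at 78 and 56 units, miR-221 at 73 and 50, miR-181c at 46 and 34, and miR-181d at 23 and 23. All 6 members were above the column median in both samples, as were 28.7% of all probes and 1 of the 8 opposite arms, whose values ran from 1 to 12 units.

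By rank in the authors' deposited table, the members took nearly the same place in both samples. The share of probes with a lower value was 90.7% in replicate 1 and 90.2% in replicate 2 for miR-181b, 90.4% and 89.6% for miR-221, 88.2% and 86.8% for miR-181c, and 82.7% and 81.8% for miR-181d. In the scanner tables the shares were 89.0% and 64.5% for miR-181b, 89.8% and 84.1% for miR-221, 88.2% and 78.8% for miR-181c, and 82.9% and 69.2% for miR-181d. In replicate 2 all 4 stood lower in the scanner table than in the deposited one. Between samples the members' shares in the deposited table differed by 0.48 to 1.35 points, against a median of 3.32 points over the 128 probes in the same range in replicate 1. In the scanner tables they differed by 0.0 to 24.5 points, with a median of 7.50 against 9.90 over 125 such probes. Across the 956 probes detected in neither sample, Spearman's rho between the samples was 0.33 in the deposited table and 0.15 in the scanner tables. Whether the authors processed the columns jointly was not tested.

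**Figure D4:**
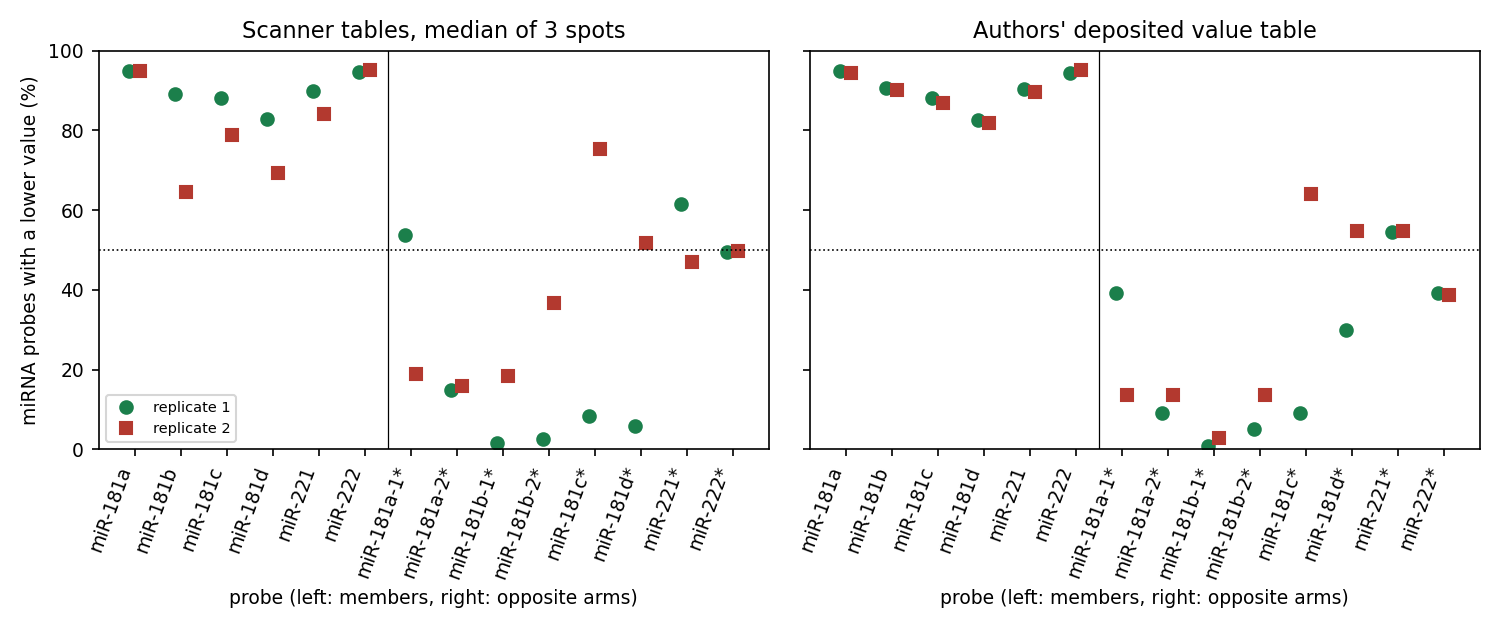
Share of the 1040 miRNA probes with a lower value than each member (left of the vertical line) and each opposite arm (right of it), from the raw scanner tables (left panel) and the authors' deposited value table (right panel), by sample. All 6 members lie above 50% in both panels, from 64.5% (miR-181b, replicate 2, scanner table) to 95.3% (miR-222, replicate 2), and most opposite arms lie lower.

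Because miR-181a is known from blood cells and miR-222 from endothelium and smooth muscle, the markers of these cells are given beside them. The 8 blood markers, among them miR-142-3p, miR-223, miR-150 and miR-451, gave 205.7 to 228.9 units in replicate 1 and 44.4 to 62.9 in replicate 2. Their sums of 1728 and 413.8 units compare with 1625 and 467.4 units for the same number of median blank spots. In replicate 2 only 18.0% of all miRNA spots exceeded the median blank spot. The ranges of the blood markers spanned the median miRNA probe of each array (222.9 and 53.1 units). The endothelial miR-126-3p gave 216.2 and 53.1 units, and miR-126-5p gave 224.6 and 54.5. These blood and endothelial markers lay below the limits in both samples. Only 5.96% of all probes were detected in both samples, so this is near that share. Of the 5 stroma and smooth muscle markers, miR-143 (214.3 and 49.3 units in replicates 1 and 2), miR-145 (228.4 and 58.4), miR-199a-3p (223.8 and 53.2) and miR-199a-5p (228.1 and 46.8) were below the limits. The fifth, miR-214, was above the limit in replicate 2, as given above. The part of blood, endothelial, stromal or smooth muscle RNA in the signals of miR-181a and miR-222 was not tested.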

How the data were processed

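Per the file headers, the authors' scanner tables give each spot's mean intensity and its SD. The authors also deposited a table of 1 processed intensity per probe and sample. Blank spots well above 0 show that the scanner intensities were not background-subtracted. Per the labels' protocols, the small RNA fraction was poly(A)-tailed and tagged for Cy3 or Cy5 staining by a service provider (LC Sciences). The scanner, software and build were not given in the sources used here.

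Detection used raw intensities and the blank-spot limit. Levels used normexp correction (offset 50) over all spots, log2, quantile normalization over miRNA spots and the median of 3 repeat spots. Signal over the median blank spot was tested with limma 3.58.1 (treat, 2-fold bound, trend, adjusted p threshold of 0.05, all 1040 probes) in R 4.3.3. Its prior degrees of freedom were infinite, so probes of like signal shared 1 variance. These p-values thus rest on the spread between the 2 normalized samples pooled over probes of like signal, not on each probe's own spread. They cover no variation beyond these 2 samples.

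The members and lists were chosen with earlier results of these data known. The text names the members, their opposite arms, probes with a member's seed, and cell type markers. Target sequences came from the scanner tables, and coordinates and mature sequences from RefSeq, GRCm38.p6. For the processed table, log2 differences used a pseudocount of 1.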

Additional observations from a re-analysis of the deposited data

How the results depend on the processing

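Limits based on all miRNA spots, the spatial background and levels in single samples were chosen after seeing the data. The count of 1 detected miR-181 member stayed at 1 with the 95th percentile or median-based limit of blank spots, without the brightest blank spot, with limits from miRNA spots or a spatial background, and without either replicate (lowest and highest, 1 and 1). It was 0 with limits of 6 or 10 blank SD, when all repeat spots had to pass, and with limma's treat. The same held for the pair, except that its 1 remained when all repeat spots had to pass. At 6 and 10 SD the higher limit itself ends the call. In limma's treat test, 0 members of either family became 1 without the 2-fold bound and 1 with the median blank subtracted (adjusted p = 0.020 for miR-181a and 0.016 for miR-222, floored values). Over all probes, 36 passed treat, 65 with that subtraction, 68 without the bound, 13 with a 4-fold bound and 2 both without normalization and with a shift to equal medians. Of all 1040 probes, 62 were detected, and 33 at 10 SD. The median signal over blank of the 6 members was 0.25 log2 units. It was 1.95 with subtraction (floored values, no fold over the raw blank) and 2.61 over the median probe of the authors' deposited table. In single samples it ran from -0.03 to 0.57. The members' median difference between samples, 0.10, was 0.85 with subtraction, 1.06 without normalization, -0.79 with the shift and 0.29 in the authors' deposited table. Over all probes the median difference was -0.01, and in the same settings -0.02, 0.69, -1.15 and 0.26. Scaling of the whole array thus moved all probes too, except with subtraction. For these shifts the cause was not tested. No paired analysis was possible because there is 1 group. The treat test could not be run on 1 sample, since no spread is left.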
